A study of Homo sapiens with 3 samples.

Results

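Hypoxia output genes are the transcripts through which cells answer a shortage of oxygen, and NDRG1 with 9 others of this kind was followed here in HT29 cells, a line established from a human colon adenocarcinoma. The members were NDRG1, BNIP3, BNIP3L, ADM, VEGFA, ANGPTL4, CA9, KDM3A, DDIT4 and NDUFA4L2 (COXFA4L2 in current nomenclature), each taken through every probe set that the platform annotation pairs with it alone. By this rule 9 of the 10 members had a probe set, and the annotation reads 19775 genes in this way in all. They are read by 16 of the 54613 probe sets besides controls. CA9 had none under the rule and was not analysed here. The genes were chosen because earlier results of these same arrays were known, so their differences between conditions are given as descriptions without a test.

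The cells had been transduced by lentivirus either with a construct that expresses miR-146a (2 arrays, replicates 1 and 2) or with an empty vector (1 array). All were HT29 cells, and the labels give the same growth conditions for all 3 arrays, with 10% serum, 95% air and 5% CO2 at 37 °C. The labels do not say whether the cells were clones or pools, which promoter drove the construct, or whether the replicates came from separate cultures. The spread between replicates may therefore be technical, and the single vector array has no spread of its own. In such bulk RNA, fewer cells carrying a transcript and less of it per cell cannot be told apart.

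Hypoxia-inducible factors (HIFs) are pairs of an oxygen-labile alpha subunit and the stable ARNT subunit. In the presence of oxygen the EGLN prolyl hydroxylases mark the alpha subunit, which VHL then delivers for degradation, and without oxygen the pair binds the core letters ACGTG or GCGTG near its target genes. In colon tumours this output covers blood vessel growth, acid handling, mitochondrial turnover and a brake on growth signalling. Several members also answer to other inputs, such as amino acid stress and glucocorticoids for DDIT4 and fatty acids for ANGPTL4.

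The expressed microRNA has the mature sequence below, as given by RefSeq (GRCh38.p14, chr5:160485372-160485393, plus strand), shown because it is the only agent that distinguishes the groups by label. The capitals mark its seed, bases 2 to 8.
hsa-miR-146a-5p: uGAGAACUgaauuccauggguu

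RefSeq promoters were matched for 7 of the 10 members. Each was read over the 250 bases before the annotated start for ACGTG or GCGTG on either strand, where matches on the other strand read CACGT or CACGC. All 7 members held at least 1 match, with 1 to 6 per promoter, against 43.2% of 35116 promoters of the same length in the table. The narrower ACGTG alone was found in 4 of the 7 members and in 18.5% of all promoters. The counts are per member, and the 7 members have 9 promoters, while the shares are per promoter. The members were also chosen as hypoxia output genes, so nothing is read from these shares. A match describes the letters and does not show a bound site. The promoters of 5 measured members are shown, from GRCh38.p14, with the matches in capitals. They are the 4 members with the largest differences among those matched, and BNIP3, which held the most matches and whose probe sets both lay below the filter on low signal (5.13 on the log2 scale, the median over all probe sets of the average of both conditions).
NDUFA4L2 promoter, chr12:57240763-57241012, minus strand: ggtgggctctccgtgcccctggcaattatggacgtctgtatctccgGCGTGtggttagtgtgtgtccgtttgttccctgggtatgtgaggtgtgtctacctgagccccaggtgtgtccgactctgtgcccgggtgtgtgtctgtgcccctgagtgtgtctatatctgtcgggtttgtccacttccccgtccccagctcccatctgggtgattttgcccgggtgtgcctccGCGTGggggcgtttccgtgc
DDIT4 promoter, chr10:72273674-72273923, plus strand: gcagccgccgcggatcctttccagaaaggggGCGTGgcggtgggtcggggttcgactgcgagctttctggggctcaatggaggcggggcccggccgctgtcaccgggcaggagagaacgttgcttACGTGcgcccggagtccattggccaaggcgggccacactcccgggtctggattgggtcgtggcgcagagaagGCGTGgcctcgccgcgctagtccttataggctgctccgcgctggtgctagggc
ADM promoter, chr11:10304823-10305072, plus strand: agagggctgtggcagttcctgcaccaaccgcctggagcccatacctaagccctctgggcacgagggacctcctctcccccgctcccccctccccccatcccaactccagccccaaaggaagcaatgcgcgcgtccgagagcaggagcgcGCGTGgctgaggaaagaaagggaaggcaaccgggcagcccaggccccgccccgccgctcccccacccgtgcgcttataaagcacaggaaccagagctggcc
KDM3A promoter, chr2:86441121-86441370, plus strand: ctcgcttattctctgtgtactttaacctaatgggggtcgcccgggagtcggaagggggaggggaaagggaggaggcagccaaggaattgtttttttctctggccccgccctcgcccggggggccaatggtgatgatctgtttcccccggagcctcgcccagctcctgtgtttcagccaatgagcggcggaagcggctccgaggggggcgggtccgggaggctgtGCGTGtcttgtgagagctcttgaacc
BNIP3 promoter, chr10:131981924-131982173, minus strand: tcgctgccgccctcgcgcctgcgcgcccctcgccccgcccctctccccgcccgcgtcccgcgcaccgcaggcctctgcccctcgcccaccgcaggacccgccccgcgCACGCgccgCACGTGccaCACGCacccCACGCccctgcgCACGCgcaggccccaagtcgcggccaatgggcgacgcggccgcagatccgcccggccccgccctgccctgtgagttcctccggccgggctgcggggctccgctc

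The BNIP3 promoter held 6 matches, which include the palindrome CACGTG read once on each strand, and 3.22% of all promoters held at least 4. DDIT4 had 3 matches, of which 1 was ACGTG at bases -125 to -121 from the start. NDUFA4L2 had 2 matches of GCGTG and ADM and KDM3A 1 each. RefSeq lists a further start for NDUFA4L2 and for KDM3A, whose windows overlap those shown and hold the same number of matches.

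The members read lower in the miR-146a arrays than in the vector array. In both miR-146a arrays 15 of the 16 probe sets lay under the vector, and none lay above it in either. The filter was passed by 13 of the 16 probe sets. Among all 54613 probe sets 28.9% were lower in both, and since the members were chosen on this contrast nothing is read from that comparison. The median difference over the 9 measured genes, with the probe set of highest average signal for each, was -0.56 on the log2 scale, against 0.00 over all probe sets. By array it was -0.55 in replicate 1 and -0.57 in replicate 2, an SD of 0.02. For 15 of the 16 probe sets the mean difference was larger than the gap between the 2 miR-146a arrays, against 23.2% of all probe sets that were lower by more than that gap. In 3 of the 16 the replicates were exactly equal, so any value under the vector meets this rule. For that reason, and because of the choice of members, nothing is read from this comparison either.

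Of the 16 probe sets, 3 were at least 1.5-fold lower in both arrays (0.485% of all probe sets) and 1 was at least 2-fold lower in both (0.0183%). With a limit of 0.32 on the log2 scale the count was 8 (2.85% of all probe sets). The 3 past 1.5-fold belonged to NDRG1, NDUFA4L2 and DDIT4. For RNA quality, the platform's controls differed between miR-146a and vector by -0.32 to -0.18 (log2) at the 5′ ends of ACTB and GAPDH, by -0.10 to -0.07 in the middle and by -0.03 to 0.05 at the 3′ ends. The part of 5′ signal in the members' differences was not tested.

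**Figure D1:**
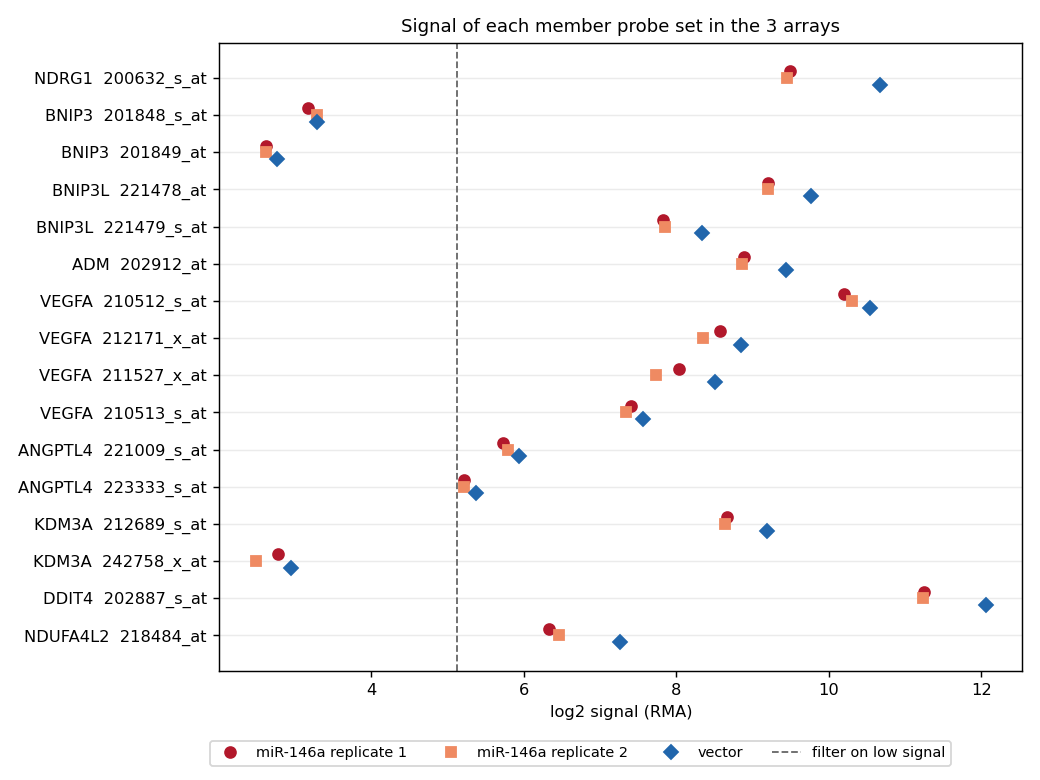
Log2 signal (x axis) of the 16 member probe sets (y axis, gene and probe set) in miR-146a replicates 1 and 2 (circles and squares) and the vector array (diamonds). The dashed line is the filter on low signal at 5.13, which 13 probe sets exceed, and in each of those 13 both miR-146a points lie left of the vector.

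NDRG1, a cytoplasmic protein induced by hypoxia, iron loss and differentiation and described as a suppressor of metastasis in colon cancer, differed most among the members. Its single probe set, 200632_s_at, read 9.49 and 9.45 in the miR-146a arrays, against 10.67 in the vector array. The 2 miR-146a values lay 0.03 apart and differed from the vector by -1.18 and -1.21, so both lay under the single vector value. The mean was 9.47 ± 0.02 (SD, n = 2), 2.29-fold lower than the vector, with 2.27-fold in replicate 1 and 2.32-fold in replicate 2. Ranked by mean difference it was number 4 from the lowest among the 27306 probe sets above the filter. No other probe set for NDRG1 was available under the rule, so the value has no second reading within the gene.

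Members that act on metabolism and growth signalling came next. NDUFA4L2 encodes a mitochondrial protein that restrains respiratory chain activity in hypoxia. Its probe set 218484_at read 6.33 and 6.47 in the miR-146a arrays, against 7.26 in the vector array. The mean of 6.40 ± 0.10 (SD, n = 2) was 1.82-fold lower, with replicate 1 at 1.91-fold and replicate 2 at 1.73-fold. Its 2 miR-146a values were further apart, by 0.14, than those of NDRG1, and both still lay under the vector.

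DDIT4, also called REDD1, releases the TSC complex to restrain the growth kinase mTOR. Its probe set 202887_s_at read 11.25 and 11.24 in the miR-146a arrays, against 12.06 in the vector array. With a mean of 11.24 ± 0.01 (SD, n = 2) it was 1.76-fold lower, at 1.75-fold and 1.77-fold in replicates 1 and 2. The gap between its miR-146a arrays, 0.01, was the smallest among member probe sets whose replicates were not exactly equal.

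The mitophagy receptors BNIP3 and BNIP3L are paralogs of the outer mitochondrial membrane that hand damaged mitochondria to autophagy, and they read differently. BNIP3L, also known as NIX, had 2 probe sets above the filter. The brighter, 221478_at, read 9.20 in each miR-146a array, against 9.77 in the vector array, a 1.49-fold lower value with exactly equal replicates. The other, 221479_s_at, read 7.82 and 7.85 in the miR-146a arrays, against 8.34 in the vector array, 1.42-fold lower (mean 7.84 ± 0.02, SD, n = 2). The 2 readings of BNIP3L thus differed by 0.07 on the log2 scale, and neither reached 1.5-fold in either array.

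BNIP3 lay below the filter in all arrays. Its probe set 201848_s_at read 3.17 and 3.29 in the miR-146a arrays, against 3.29 in the vector array, and replicate 2 held exactly the vector's value. This was the only member probe set not lower in both arrays, and its mean difference of -0.06 was smaller than the gap of 0.11 between the miR-146a arrays. Its other probe set, 201849_at, read 2.62 in each miR-146a array, against 2.76 in the vector array. BNIP3 is known to be silenced by promoter methylation in many colorectal cancers, but methylation was not measured here and its part in the low signal was not tested. No detection calls came with the values, and at this signal the conditions could not be distinguished.

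Of the secreted members, ADM, the peptide adrenomedullin that widens and seals blood vessels, had 1 probe set, 202912_at. It read 8.89 and 8.86 in the miR-146a arrays, against 9.44 in the vector array. The mean of 8.87 ± 0.02 (SD, n = 2) was 1.48-fold lower. Both arrays were close to the 1.5-fold limit without reaching it, at 1.46-fold and 1.49-fold.

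VEGFA, the growth factor that drives new blood vessels, had 4 probe sets, all above the filter and all lower in both arrays, but they disagreed in size. The brightest, 210512_s_at, read 10.19 and 10.31 in the miR-146a arrays, against 10.54 in the vector array, a 1.22-fold lower mean. Probe set 212171_x_at read 8.57 and 8.35 in the miR-146a arrays, against 8.84 in the vector array, 1.30-fold lower.

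Probe set 211527_x_at of VEGFA read 8.03 and 7.74 in the miR-146a arrays, against 8.51 in the vector array, 1.54-fold lower. Probe set 210513_s_at read 7.40 and 7.33 in the miR-146a arrays, against 7.57 in the vector array, 1.15-fold lower. Across the 4 the mean differences ran from -0.20 to -0.63 on the log2 scale. The larger differences came from the 2 probe sets with the suffix _x_at, which on this platform marks probes that can also match other sequences. Their miR-146a arrays also lay furthest apart among the VEGFA probe sets, by 0.21 and 0.29, and only in replicate 2 was 211527_x_at past 1.5-fold (1.71-fold, against 1.40-fold in replicate 1).

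ANGPTL4, a secreted inhibitor of lipoprotein lipase, lay just above the filter and differed least among the members above it. Its probe set 221009_s_at read 5.73 and 5.80 in the miR-146a arrays, against 5.93 in the vector array, 1.12-fold lower. Its probe set 223333_s_at read 5.22 in each miR-146a array, against 5.37 in the vector array, 1.11-fold lower. The 2 probe sets differed from each other by 0.02 on the log2 scale. Of the probe sets above the filter, 15.6% and 17.5% had a mean difference as low as theirs, where the share was 0.0146% for NDRG1.

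KDM3A, a histone demethylase that HIF induces and that needs oxygen itself, was read by 1 probe set above the filter and 1 below it. Probe set 212689_s_at read 8.67 and 8.64 in the miR-146a arrays, against 9.20 in the vector array, a 1.46-fold lower mean of 8.65 ± 0.02 (SD, n = 2). Probe set 242758_x_at read 2.78 and 2.49 in the miR-146a arrays, against 2.95 in the vector array. The gap of 0.29 between its miR-146a arrays was close to its mean difference of -0.32.

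**Figure D2:**
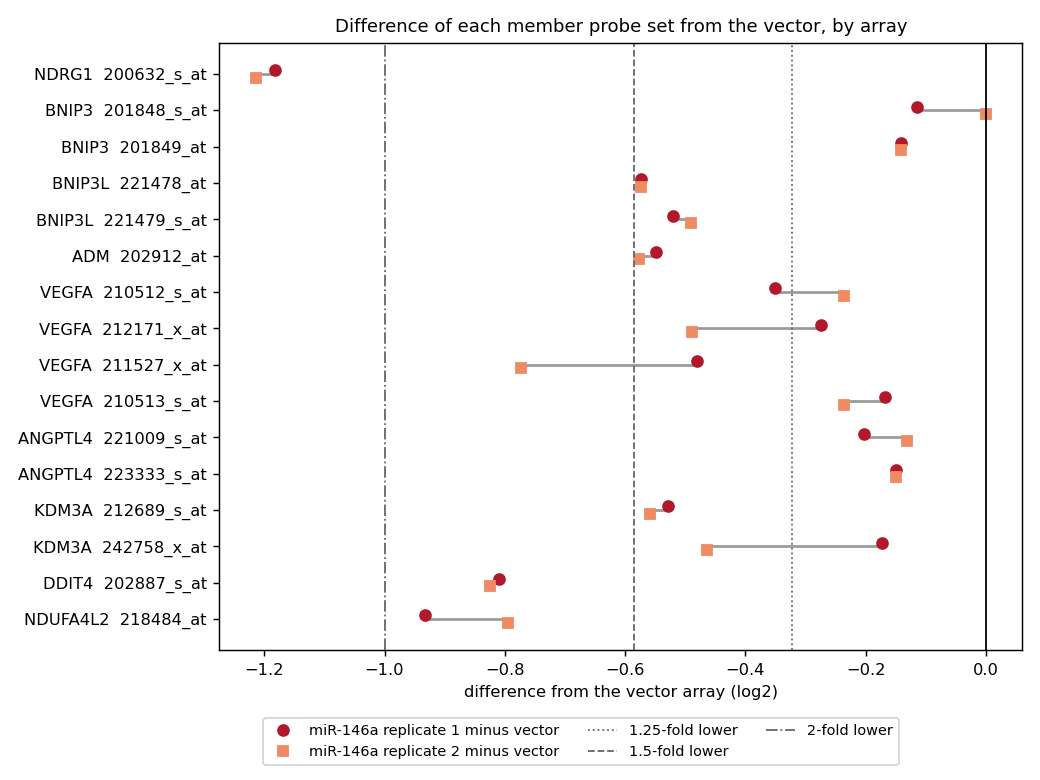
Difference from the vector array (x axis, log2) of each member probe set (y axis) in miR-146a replicates 1 (circles) and 2 (squares), joined by a grey line, with dotted, dashed and dash-dotted lines at differences of 0.32 on the log2 scale, 1.5-fold and 2-fold. NDRG1 lies past 2-fold in both arrays, NDUFA4L2 and DDIT4 lie between 1.5-fold and 2-fold, and BNIP3 lies at or near 0.

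Within genes that had several probe sets, the readings were closest for ANGPTL4 and BNIP3L, which spanned 0.02 and 0.07 on the log2 scale, and furthest apart for VEGFA, which spanned 0.43. KDM3A spanned 0.23 and BNIP3 0.08, each with a probe set or more below the filter. With all probe sets averaged, KDM3A was at -0.43 and VEGFA at -0.38, against -0.54 and -0.29 with the probe set of highest signal. The order of BNIP3L, ADM and KDM3A, at -0.57, -0.56 and -0.54, is not resolved, since they lay within 0.03 of each other.

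The genes whose pattern over the 3 arrays was most like that of NDRG1, by the distance between their pairs of differences from the vector, were CEACAM5 (0.22 log2 units), MMP7 (0.25), CEACAM6 (0.33), TM4SF4 (0.39) and MICOS10P1 (0.44). Their mean differences were -1.35, -1.02, -0.96, -0.92 and -0.89 on the log2 scale. A further probe set of CEACAM5 above the filter differed by 0.00, and a further one of CEACAM6 by -1.20. With 3 arrays and a shared vector this likeness says only that the genes differed by a similar amount.

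**Figure D3:**
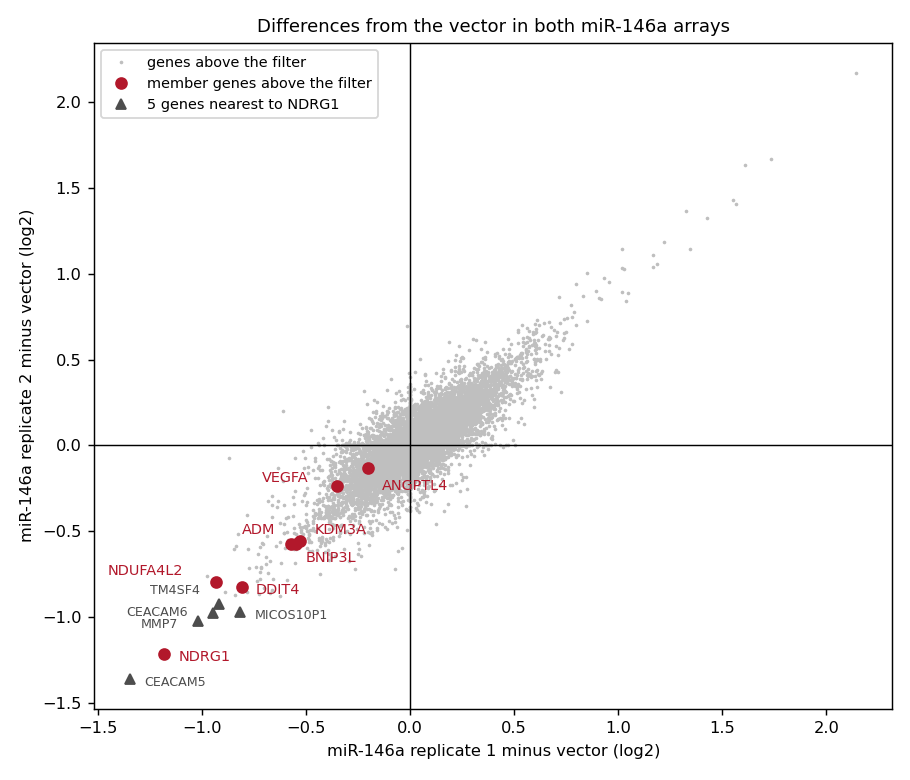
Difference from the vector in miR-146a replicate 1 (x axis, log2) against replicate 2 (y axis, log2) for 12444 genes above the filter (grey, 1 probe set each), the 8 member genes above it (red circles) and the 5 genes nearest to NDRG1 (triangles). Both axes subtract the same vector array, so points line up along the diagonal in part for that reason, and the members lie in the lower left quadrant.

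The rest of the hypoxia pathway was read through 3 lists that leave out the members: HIF subunits and oxygen sensors, enzymes of glucose use, and other hypoxia-induced genes. Of their 60 genes above the filter, 36 were lower and 13 higher in both miR-146a arrays. Among all 12444 genes above the filter 28.8% were lower and 40.2% higher in both. The lists, like the members, were chosen with earlier results of these data known. The shares among all genes are therefore given as description, and nothing is read from the comparison with them. The median over the 60 genes was -0.08 on the log2 scale, against 0.01 over all genes. With limma and Benjamini-Hochberg adjustment over 27306 probe sets, 0 of the 60 passed an adjusted p of 0.05, as did 0% of all probe sets, although 22 had an unadjusted p under 0.05, 18 of them lower and 4 higher, against 8.73% lower and 14.2% higher among all genes. With 1 probe set per gene and the variance prior taken from probe sets whose 2 miR-146a values differ, 7 were lower and 2 higher, against 2.29% lower and 4.40% higher among all genes. Both fits lend the single vector array the spread of the miR-146a arrays. They differ in that the second leaves probe sets with exactly equal replicates out of the prior. Its prior degrees of freedom were 15.1, against 0.558 in the first.

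Among HIF subunits and oxygen sensors, both arrays read under the vector for 5 of 11 genes and above it for 4 (median 0.01). The lowest were the hydroxylases EGLN3 and EGLN1, which are themselves HIF targets, at -0.28 and -0.22 on the log2 scale. Other probe sets of EGLN1 were at -0.32 and -0.43 and that of EGLN3 at -0.36. The highest were CITED2, a competitor for the coactivators of HIF, at 0.20 (other probe sets from -0.11 to 0.00), and the coactivator EP300 at 0.10. With 1 probe set per gene none passed with either prior. With all 22 probe sets of the list taken separately, 9 were lower and 8 higher in both arrays. The prior from unequal replicates then called those of EGLN1 at -0.43 and of EGLN3 at -0.36 as lower. Over all 27306 probe sets this prior called 1306 lower and 1130 higher. For counts of probe sets, here and in the lists below, the share at hand is 28.9% lower in both among all 54613. That share includes probe sets below the filter, so it is not a like comparison.

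In the list for glucose uptake, glycolysis and pyruvate diversion both arrays read under the vector for 17 of 22 genes and above it for 3 (median -0.12). ALDOC, the brain-type aldolase, read 8.23 and 8.32 in the miR-146a arrays, against 8.82 in the vector array, a difference of -0.55. PDK1, the kinase that keeps pyruvate from the mitochondrion, read 8.66 and 8.69 in the miR-146a arrays, against 9.16 in the vector array, a difference of -0.49, and its other probe sets were at -0.27 and -0.92. The highest genes were PFKL, the liver phosphofructokinase, at 0.19 and GYS1, glycogen synthase, at 0.09. With 1 probe set per gene and the prior from unequal replicates, ALDOC, ENO2, PDK1 and GBE1 passed, all lower. Of all 40 probe sets of the list, 31 were lower and 5 higher in both arrays, and that prior called 8, all lower. They include further probe sets of PGK1 at -0.55 and -0.43 and of ENO1 at -0.42. The probe sets that stood for PGK1 and ENO1 were at -0.21 and -0.02.

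Other hypoxia-induced genes did not go one way. Both arrays read under the vector for 14 of 27 and above it for 6 (median -0.05). The carbonic anhydrase CA12 was at -0.46 on the log2 scale (other probe sets from -0.41 to 0.00) and P4HA1, a collagen prolyl hydroxylase, at -0.43. Opposite in direction to the members, EDN1, the vessel-constricting peptide endothelin, read 8.73 and 8.71 in the miR-146a arrays, against 8.04 in the vector array, a difference of 0.68. HILPDA, a lipid droplet protein that is a strong HIF target, was at 0.35, with its other probe set at 0.33. With 1 probe set per gene and the prior from unequal replicates, EDN1 and HILPDA passed as higher and P4HA1, P4HA2 and CA12 as lower. Of all 56 probe sets of the list, 30 were lower and 13 higher in both arrays. That prior called 7 of them lower and 3 higher, with a further probe set of KDM4C at -0.39 among the lower. The probe set that stood for KDM4C was at -0.07.

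With 1 probe set per gene, paralogs of the members were for the most part near the vector, with 3 of 12 under it and 1 above it in both arrays (median -0.01). Taken separately, 13 of the 26 probe sets of the list were lower and 3 higher in both. A further probe set of NDRG3 was at -0.40 and 1 of BNIP2 at -0.42, where those that stood for the genes were at 0.00 and 0.01. CA2, a cytosolic carbonic anhydrase, was at -0.66 on the log2 scale and CA12 at -0.46 as above, and both passed with the prior from unequal replicates. NDRG4 was at -0.14 and the KDM3A relative JMJD1C at 0.15, with its other probe sets from -0.10 to 0.31. Among receptors and effectors of the members both arrays read under the vector for 6 of 17 and above it for 1, and with 1 probe set per gene 0 passed with either prior. Of all 28 probe sets of the list, 14 were lower and 3 higher in both arrays. The prior from unequal replicates called 1 of RHEB and 1 of NRP1, against 1306 lower and 1130 higher over all 27306 probe sets. RHEB, a small GTPase that activates mTOR, was at -0.54 in that probe set and NRP1, a coreceptor of VEGFA, at 0.36. These 2 genes were named after their values were seen, and the probe sets that stood for them above were at -0.04 and -0.03. Among genes with the same sign in both arrays, the lowest were MAP1LC3B and GABARAPL1, autophagosome proteins to which BNIP3L binds, at -0.32 and -0.28, with their other probe sets at -0.21 and -0.05. RPTOR, a subunit of the mTOR complex, was the one gene above the vector in both, at 0.19, and PHB2, an inner mitochondrial membrane protein, was at -0.01.

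Genes of other pathways that reach some of the members gave mixed readings. Of 13 genes of ATF4 and the integrated stress response both arrays read under the vector for 7 and above it for 2, with the asparagine synthetase ASNS at -0.64 and PSAT1, of serine synthesis, at -0.21 (other probe set -0.74), and with ATF3 at 0.57 (other probe set 0.11) and ATF4 at 0.06. Of 6 glucocorticoid response genes 3 were lower and 3 higher. KLF9, a zinc finger repressor, was at -0.87 (other probe sets from -0.79 to -0.09) and TSC22D3 at -0.18 (other probe set 0.03), while the kinase SGK1 was at 0.68 and CEBPD at 0.31. Of 8 PPAR targets 4 were lower and 2 higher, with the kinase PDK4 at -0.51, CPT1A, of fatty acid entry into mitochondria, at -0.18 (other probe sets from -0.83 to 0.01), the lipid droplet protein PLIN2 at 0.13 and ACSL5 at 0.00. With 1 probe set per gene and the prior from unequal replicates, ASNS, KLF9 and PDK4 passed as lower and ATF3 and SGK1 as higher. With each probe set taken separately, 12 of 21 were lower and 3 higher in both arrays for ATF4 and the integrated stress response. The counts were 7 lower and 4 higher of 12 for the glucocorticoid response, and 11 lower and 3 higher of 18 for PPAR targets. Among all 54613 probe sets, those below the filter included, 28.9% were lower in both. Further probe sets of TRIB3, DUSP1 and PPARA were at -0.47, -0.53 and -0.34.

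**Figure D4:**
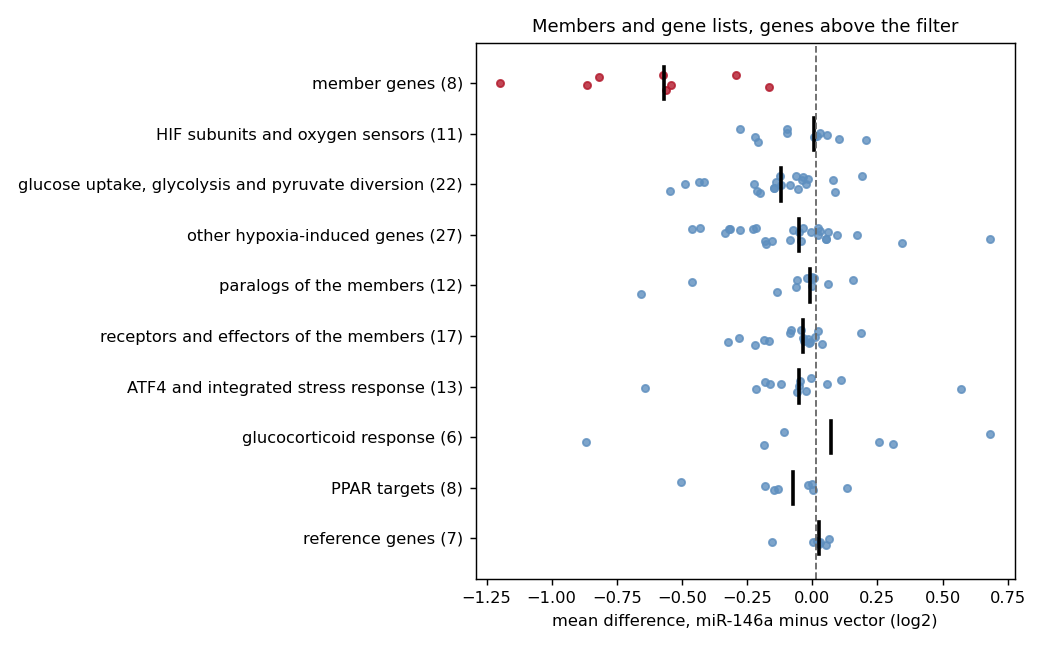
Mean difference of miR-146a minus vector (x axis, log2) for each gene above the filter in the members (red) and in 9 gene lists (blue), with the number of genes in brackets and black bars at the medians. The dashed line is the median of all 12444 genes at 0.01, the member median lies furthest below it, and the members were chosen on this contrast.

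Markers of colon epithelium were present, with 8 of 8 above the filter, and their summed log2 signal was 83.3 and 83.1 in the miR-146a arrays, against 83.9 in the vector array. Single markers differed in both directions, with CDH17, an intestinal cadherin, at 5.39 and 5.24 in the miR-146a arrays, against 5.86 in the vector array. On the log2 scale the mean difference was -0.54 for CDH17, -0.24 for KRT20 and 0.10 for VIL1, and their part in the members' differences was not tested. For leukocyte, endothelial and stromal markers 4 of the 10 that had a probe set, out of 12 (CD14, PECAM1, COL1A1 and DCN) were above the filter, with COL1A1 the highest at an average of 7.25 on the log2 scale, and the sum was 48.7 and 48.3 in the miR-146a arrays, against 48.5 in the vector array. PTPRC, CD3E, VWF, CDH5, COL3A1 and PDGFRB were below the filter. Of 7 measured reference genes 2 were higher and 1 lower in both arrays, with ACTB at 0.06, PPIA at 0.05 and YWHAZ at -0.16 (other probe sets from -0.46 to -0.16). The MIR146A locus has 2 probe sets, neither above the filter, of which 238225_at read 5.03 and 5.23 in the miR-146a arrays, against 4.82 in the vector array, and 232504_at read 2.79 and 2.82, against 2.96. The labels do not state the sequence of the construct, and whether these probe sets can register it was not tested.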

How the data were processed

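The deposited table gives log2 values for 54675 probe sets in 3 arrays. The authors made these log2 values with RMA, per the submitters' processing notes, from biotin-labelled cRNA, per the labels' protocols. The version of RMA, and whether other arrays were processed with these, were not stated in the labels. No detection calls accompany the values. The number of arrays limits their precision. Medians were 5.14, 5.12 and 5.13 in miR-146a replicates 1 and 2 and the vector array. Above the filter, 12.5% of probe sets had identical values (tolerance 0) in replicates 1 and 2, and the SD of their difference was 0.13.

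Gene names came from the platform annotation, with symbols updated by Entrez number (41037 of 41091 with 1 gene matched); 1801 had several genes and 11721 none here. The filter is the median, over non-control probe sets, of the average of both group means (5.13). Differences are the mean of the miR-146a arrays minus the vector. For genes, the probe set of highest average signal was used. limma 3.58.1 (R 4.3.3, lmFit and eBayes, two-sided) was fitted to the 27306 probe sets above the filter with 1 residual degree of freedom. It was tested on simulated data without exactly equal replicates, which therefore cannot decide between the 2 variance priors. Members and lists were chosen with earlier results of these data known. Named list genes are the 2 highest and 2 lowest per list with the same sign in both arrays, and the 5 genes nearest to NDRG1. Genes that passed only with the other prior, and those named only for a further probe set, were named after their values were seen. Promoter and microRNA sequences are from RefSeq, GRCh38.p14. Sites for the seed in transcripts were not analysed here. Figures were drawn with matplotlib 3.10.9.

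Alternatives were quantile or cyclic loess normalization on top of the deposited values, centring on reference genes, other filters and folds, all probe sets, 1 probe set per gene, other variance priors, and leaving out either miR-146a array.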

Additional observations from a re-analysis of the deposited data

How the results depend on the processing

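The 54 recomputed differences of the 9 member genes, over quantile and cyclic loess normalization, centring on reference genes, leaving out either miR-146a array and averaging probe sets, were lower than the vector in 53 and 0 in 1, BNIP3 without replicate 1. The median over members was -0.54 with probe sets averaged, against -0.56, and -0.57 to -0.55 when an array was left out. The count of member probe sets at least 1.5-fold lower in both arrays was 3, with 8 at a limit of 0.32 on the log2 scale and 1 at 2-fold. With an array left out, a count covers only the remaining miR-146a array, so it could only stay or rise. It was then 3 to 4 for 1.5-fold lower, and 15 to 16 for lower than the vector. The same limit holds for the list counts below. limma called 0 probe sets (6379 had an unadjusted p under 0.05) and 2436 with the prior from probe sets whose 2 miR-146a values differ, 1130 higher and 1306 lower. In the 3 hypoxia lists that prior called 9 genes, against 0. In these lists 36 of 60 genes (60%) were lower in both arrays, against 70 of 118 (59.3%) with each probe set taken separately. With either array left out the count was 40 of the 60 genes. Of the other lists, counts lower in both arrays moved by more than 1.5 times in 3. Paralogs had 3, or 5 without either replicate and 8 with cyclic loess. Receptors and effectors had 6, or 12 without replicate 1, and reference genes had 1, or 3 without replicate 1. No paired analysis was possible because the single vector array carries no replicate number. Depth of signal limits BNIP3 and the second probe set of KDM3A, which lie below the filter.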
